A study of Homo sapiens with 3 samples.

Results

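Kinesin genes were followed across the 3 arrays of a series on HT29, an established line of human colorectal cancer cells, treated for 24 h with a linderapyrone derivative. Members were all probes whose gene symbol in the annotation of the array platform was KIF with a number and at most one of the letters A to C, or KIFC1 to KIFC3. These were 41 genes with 47 probes, of 18639 named genes with 21707 probes in all. A mitotic set of 12 symbols was set apart from the rest. Of these, 11 had a probe; KIF4A had none in the annotation used here and was not analysed. The other 30 genes are called transport and other kinesins. The groups, 1 array each, were DMSO, the solvent control, the derivative at 5 µM and the derivative at 20 µM. Titles of the samples state the doses in mM; treatment labels and descriptions state µM, the unit used here. The labels name no structure for the derivative, and all groups came from the same line grown in low-glucose medium with serum. The series was made to find genes that differ between derivative-treated and DMSO-treated cells.

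Kinesins are motor proteins that turn ATP into movement along microtubules, or into removal of tubulin from microtubule ends. Mitotic members build the spindle, move chromosomes and complete the division of the cytoplasm, and many of their genes are transcribed mainly from late S phase to mitosis. Transport members carry vesicles, organelles and cilium components, and most are used by cells that do not divide as well.

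Promoter stretches are shown because genes expressed in G2 and M phase often carry a cell cycle homology region with the letters TTTGAA near the start site, together with CCAAT boxes bound by the factor NF-Y. The sequences are from RefSeq, build GRCh38.p14, which held a promoter for 34 of the 42 kinesin genes looked up, KIF4A included. Each line gives the 100 bases before the gene's start, 5′ to 3′ on the strand of the gene. Capitals mark TTTGAA and CCAAT, which read TTCAAA and ATTGG where they lie on the opposite strand.
KIFC1, chr6:33391723-33391822, plus strand: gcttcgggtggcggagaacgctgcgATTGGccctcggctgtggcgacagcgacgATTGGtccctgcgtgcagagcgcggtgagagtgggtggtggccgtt
KIF11, chr10:92593030-92593129, plus strand: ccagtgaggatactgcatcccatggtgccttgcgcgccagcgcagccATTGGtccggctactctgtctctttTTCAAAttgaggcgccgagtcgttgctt
KIF15, chr3:44761694-44761793, plus strand: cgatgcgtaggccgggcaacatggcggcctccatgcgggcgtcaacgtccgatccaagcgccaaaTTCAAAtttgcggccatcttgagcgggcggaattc
KIF18A, chr11:28108157-28108256, minus strand: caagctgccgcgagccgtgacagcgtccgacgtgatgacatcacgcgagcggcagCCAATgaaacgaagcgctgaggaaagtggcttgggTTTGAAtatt
KIF2C, chr1:44739737-44739836, plus strand: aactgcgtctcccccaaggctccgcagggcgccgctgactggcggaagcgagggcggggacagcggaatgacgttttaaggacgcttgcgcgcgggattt
KIF20A, chr5:138179012-138179111, plus strand: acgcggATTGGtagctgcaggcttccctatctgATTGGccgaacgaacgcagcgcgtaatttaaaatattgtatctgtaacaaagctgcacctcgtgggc
KIF23, chr15:69414249-69414348, plus strand: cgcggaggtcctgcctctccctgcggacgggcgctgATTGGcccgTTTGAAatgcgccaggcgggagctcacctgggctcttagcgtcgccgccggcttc
KIF5B, chr10:32056426-32056525, minus strand: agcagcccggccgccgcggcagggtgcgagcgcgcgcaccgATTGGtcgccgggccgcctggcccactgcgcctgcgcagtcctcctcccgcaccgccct
KIF2A, chr5:62306106-62306205, plus strand: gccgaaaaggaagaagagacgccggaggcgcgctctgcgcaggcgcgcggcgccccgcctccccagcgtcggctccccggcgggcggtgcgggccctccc

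TTTGAA, searched on both strands over the 250 bases before and 50 bases after each start, was found in promoters of 9 of the 12 mitotic kinesin genes. It was found in 2 of 22 transport and other kinesin genes with a promoter in the table, and in 18.2% of all 27305 genes of the table. CCAAT was found in 10 of the 12 mitotic genes and in 8 of the 22 others, against 39.7% of all genes. The TTTGAA match lay 10 bases before the start in KIF18A, 28 in KIF11, 34 in KIF4A, 35 in KIF15 and 55 in KIF23. In KIFC1, KIF14, KIF18B and KIF20B it lay after the start, so the KIFC1 line above shows its CCAAT boxes only. KIF20A, KIF22 and KIF2C had no TTTGAA in the window; KIF20A had a pair of CCAAT boxes, and KIF2C had neither motif. The other kinesins with TTTGAA were KIF5B, 140 bases before the start, and KIF4B. A match is a description of letters and does not show that a factor binds there. Only these exact letters were searched, so a missing match does not show that a promoter lacks a cell cycle homology region.

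The values are the brightness of spots on 1-colour arrays. The signal of the median gene probe on the DMSO, 5 µM and 20 µM arrays was 117, 107 and 110, and a probe was called detected above 82.5, 79.4 and 80.2 on the same arrays. Detected probes made up 85.6% to 86.2% of an array. Log2 ratios were taken after background correction and quantile normalization, with an offset of 50 added to the corrected signal, so they understate the differences of dim genes. Signals printed for single genes are spot values before these steps. A signal can therefore be lower than in DMSO where the ratio is above 0. With 1 array per group there was no test and no measure of the spread between cultures. Genes with 2 detected probes gave a technical spread, an SD of 1 log2 ratio, of 0.14 for 20 µM against DMSO, 0.11 for 5 µM against DMSO and 0.12 for 20 against 5 µM. Of 9 markers of colon epithelium, 8 had a probe and all 8 were detected on every array. Their summed signal was 72739 (DMSO), 55898 (5 µM) and 55378 (20 µM), most of it from KRT18 at 56135 (DMSO), 43202 (5 µM) and 42073 (20 µM). Their median signal was 889 (DMSO), 798 (5 µM) and 1162 (20 µM), and that of KRT20 was 1167 (DMSO), 1146 (5 µM) and 1927 (20 µM). CDX2 was near the threshold, at signals from 85.3 to 92.6. Among markers of other cells, COL1A1, COL1A2, PTPRC and ELAVL4 were detected on no array, while DCN was detected at 211 to 231. Of 6 neuronal markers, 4 or 5 were detected on an array, and their summed signal was 542 for DMSO, 515 for 5 µM and 518 for 20 µM. Of 6 fibroblast markers, 4 were detected on each array, with sums of 735 (DMSO), 693 (5 µM) and 695 (20 µM). Of 6 blood and immune markers, 3 had a probe and 2 were detected, with sums of 316 (DMSO), 289 (5 µM) and 282 (20 µM). These sums include the blank level, with a mean of 80.2 (DMSO), 77.4 (5 µM) and 77.8 (20 µM) per spot. In the authors' value table the neuronal sums were 29.3 (DMSO), 29.9 (5 µM) and 27.9 (20 µM). There the fibroblast sums were 120, 132 and 122.5, and the blood and immune sums 35.2, 34.1 and 26.6, in the same order. The part of these markers in the kinesin ratios was not tested.

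At 20 µM against DMSO, most mitotic kinesins were lower and transport kinesins stood near their DMSO level. All 11 mitotic kinesins had log2 ratios below 0, from -1.07 for KIF20A to -0.047 for KIF2C, with a median of -0.66. Of these, 2, KIF20A and KIFC1, were at least 2-fold lower, against 0.324% of the 16062 genes detected on both arrays, and 0 were at least 2-fold higher, against 0.442%. Of the 27 transport and other kinesins detected on both arrays, 7 had ratios below 0. Their median was 0.033, and 0 were 2-fold apart in either direction. Over all genes, 47.1% had ratios below 0 and the median was 0.0071. In RNA of a whole culture, fewer cells of a type and less RNA per cell cannot be told apart. Median scaling in place of quantile normalization gave 52 genes higher and 74 lower over the array, against 71 and 52. Under it all 11 mitotic ratios were again below 0, and KIF18A passed 2-fold as well, at -1.02. The 2-fold calls ended without background correction, with KIF20A at -0.93 and KIFC1 at -0.90. They also ended with the scanner's own background column, under which 8 of 11 were below 0 and KIFC1 stood at 0.23.

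The technical spread gives another reading of the same ratios. Of the 11 mitotic kinesins, 9 were lower by more than the SD of 0.14 and 2, KIF18B and KIF2C, were within it. Of all genes, 18% were lower and 16.1% higher by more than that SD. Of the 27 other kinesins, 2 were lower by more than it, 2 were higher and 23 were within it. Ratios were wider among bright probes, and many transport kinesins were dim. When only probes with a signal at least 1.5 times the blank level on both arrays were kept, 9 mitotic and 12 other kinesins remained. By more than the technical SD, 8 of these 9 mitotic kinesins were lower and 0 higher, and 1 of the 12 others was lower and 2 higher. The SD of 0.14 was carried over from genes with 2 detected probes and was not taken again for these brighter probes. Of all genes kept, 25.9% were lower and 25.2% higher by more than that SD. The medians of the mitotic and other kinesins were then -0.66 and 0.076, and 2 of the 9 mitotic genes were at least 2-fold lower against 0.507% of 9269 genes. None of the 21 was at least 2-fold higher, against 0.755% of those genes.

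**Figure D1:**
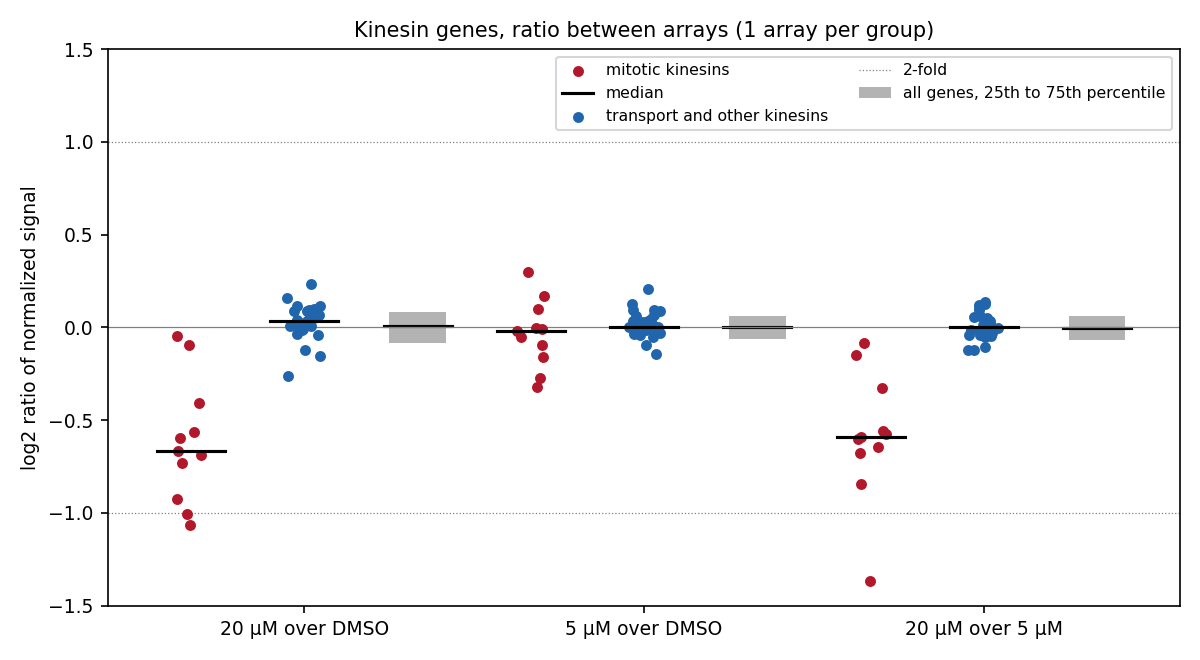
Log2 ratio of the normalized signal of each kinesin gene (points) in the 3 comparisons, with the median of each set (black lines) and the 25th to 75th percentile over all genes detected on both arrays (grey bars). Mitotic kinesins lie below 0 at 20 µM against DMSO and against 5 µM, with medians of -0.66 and -0.59, while transport and other kinesins lie around 0 in all 3 comparisons.

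Among the motors that set up the spindle poles, KIFC1 is a minus-end-directed kinesin-14 that clusters centrosomes. The DMSO array read 347 for its spot, the 5 µM array 260 and the 20 µM array 167, the lowest of the 3. At 20 µM it was 2.01-fold lower than in DMSO, and its ratio in the authors' value table was -1.41. KIF11, the kinesin-5 Eg5 that slides antiparallel microtubules apart and so separates the poles, had signals of 444 (DMSO), 346 (5 µM) and 246 (20 µM). Its log2 ratio at 20 µM against DMSO was -0.73. KIF15, a kinesin-12 that helps to keep the spindle bipolar, had signals of 191 (DMSO), 165 (5 µM) and 126 (20 µM) and a log2 ratio of -0.56. A further probe of KIF15 gave -0.50. The 3 genes of this group thus lay between -1.01 and -0.56, each of them lowest at 20 µM.

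The motors of chromosomes and kinetochores were less uniform. The role groups were assigned after values were seen, so this contrast is a description only. The kinetochore motor CENPE, outside the KIF names, is not in this group and is given below. KIF18A, a kinesin-8 that damps the movements of chromosomes at the metaphase plate, had signals of 360 (DMSO), 244 (5 µM) and 181 (20 µM). Its log2 ratio at 20 µM against DMSO was -0.92. KIF22, a kinesin-10 that pushes chromosome arms away from the poles, had signals of 455 (DMSO), 408 (5 µM) and 311 (20 µM), with a ratio of -0.41. The remaining pair stood near 0. KIF18B, a kinesin-8 of astral microtubules, had signals of 116 (DMSO), 106 (5 µM) and 105 (20 µM), not far above the detection threshold, and a ratio of -0.093. KIF2C, the centromeric depolymerase MCAK of the kinesin-13 class, was bright, with signals of 620 (DMSO), 534 (5 µM) and 532 (20 µM). Its ratio of -0.047 and that of a further probe, -0.025, were within the technical spread.

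The 4 motors of cytokinesis had ratios between -1.07 and -0.60. KIF20A, the kinesin-6 MKLP2, which brings the chromosomal passenger complex to the central spindle, had signals of 293 (DMSO), 296 (5 µM) and 139 (20 µM). Its log2 ratio at 20 µM against DMSO was -1.07, the lowest of the KIF and KIFC symbols in this comparison. KIF23, the kinesin-6 MKLP1 of the centralspindlin complex, had signals of 591 (DMSO), 469 (5 µM) and 339 (20 µM) and a log2 ratio of -0.66. KIF20B, a kinesin-6 that acts late in cytokinesis, had signals of 184 (DMSO), 137 (5 µM) and 120 (20 µM), with a ratio of -0.60. KIF14, a kinesin-3 that works with citron kinase at the midbody, had signals of 157 (DMSO), 131 (5 µM) and 99.6 (20 µM) and a ratio of -0.69. The 20 µM signal of KIF14 was close to the threshold of 80.2, where the offset weighs most. Its ratio in the authors' value table, from values of 11.7 at 20 µM and 36.3 in DMSO, was -1.63.

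**Figure D2:**
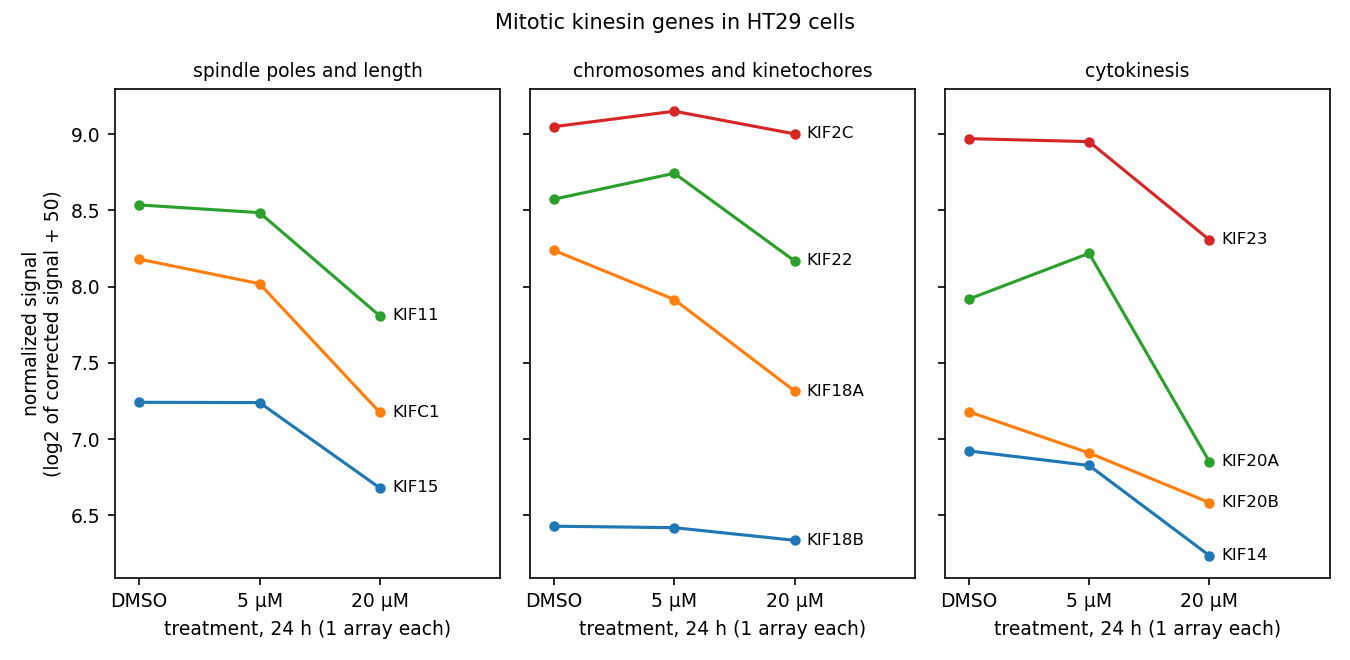
Normalized signal of the 11 mitotic kinesin genes with a probe, on the log2 scale with an offset of 50, by array (DMSO, 5 µM and 20 µM, 1 each), in 3 panels by role. Each line is a gene; 9 of the 11 are lower at 20 µM than in DMSO by more than 0.14, while KIF2C and KIF18B run nearly level and KIF20A, KIF22 and KIF2C are highest at 5 µM.

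The authors' value table, whose values ran close to a scaled signal less the blank level, with no offset, gave ratios farther from 0 for the mitotic kinesins at 20 µM against DMSO. All 11 mitotic kinesins were below 0 in it, with a median of -1.02. There 6 were at least 2-fold lower, against 1.58% of 16062 genes: KIF20A at -1.63, KIF14 at -1.63, KIFC1 at -1.41, KIF18A at -1.26, KIF20B at -1.13 and KIF15 at -1.02. KIF18B stood at -0.25 and KIF2C at -0.082, again nearest to 0. The 27 other kinesins had a median of 0.11 and ranged from -0.82 for KIF24 to 0.79 for KIF17, with 0 at least 2-fold apart. Over all genes 1.36% were at least 2-fold higher in it. Both of these extremes came from probes near the blank level, with signals of 86.5 for KIF24 and 90.2 for KIF17 at 20 µM.

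The second comparison set 5 µM against DMSO. Here the mitotic kinesins lay on both sides of 0, with ratios from -0.32 for KIF18A to 0.30 for KIF20A, a median of -0.019 and 8 of 11 below 0. Over all 16075 genes, 47.9% had ratios below 0. No mitotic kinesin was 2-fold apart, where over all genes 0.00622% were at least 2-fold lower and 0.0498% at least 2-fold higher. The members lower by more than the technical SD of 0.11 were KIF18A, KIF20B at -0.27 and KIFC1 at -0.16. Those higher by more than it were KIF20A and KIF22, at 0.17. These 3 and 2 of 11 stand beside 16.1% of all genes lower and 13.9% higher by more than that SD. KIF2C followed at 0.10, and KIF11, KIF14, KIF15, KIF18B and KIF23 stood between -0.095 and -0.0021. A further probe of KIF2C gave 0.16, above the technical SD, and one of KIF15 gave -0.11, about as far from 0 as that SD. With the mean over a gene's probes, KIF2C stood at 0.13 and 3 of 11 were higher by more than the SD. These small ratios depended on the scaling. Under median scaling 10 of 11 were below 0, against 54.4% of all genes. Their median was -0.16, and KIF20A alone was above 0, at 0.15. By more than the technical SD, 6 of 11 were then lower and 1 higher, against 33.3% and 8.51% of all genes. The SD of 0.11 was not taken again for this scaling. Over all genes median scaling gave 5 at least 2-fold higher and 4 lower, against 8 and 1. By the authors' values, 8 of 11 were below 0, against 55.3% of all genes, with KIF20A at 0.33, KIF22 at 0.11 and KIF2C at 0.048. None was 2-fold apart there, where 0.311% of all genes were at least 2-fold lower and 0.286% higher. The 27 other kinesins had a median of 0.0038 at this dose, with 12 below 0 and a range from -0.14 for KIF3B to 0.21 for KIF21A. Under median scaling their median was 0.037, with 9 below 0. By more than the technical SD, 4 of the 27 were then lower and 2 higher. The 4 were KIF2A at -0.31, KIF3B at -0.29, KIF5B at -0.21 and KIFC3 at -0.20, so lower ratios under this scaling were not limited to mitotic kinesins.

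The third comparison set 20 against 5 µM. All 11 mitotic kinesins were lower at 20 than at 5 µM, with a median log2 ratio of -0.59 and a range from -1.37 to -0.083. Over all 16036 genes detected on both arrays, 50.4% had ratios below 0. KIF20A was 2.58-fold lower, the 1 mitotic kinesin at least 2-fold lower, against 0.0935% of all genes. None was at least 2-fold higher, against 0.131% of all genes, and median scaling gave 36 genes higher and 11 lower over the array, against 21 and 15. After KIF20A came KIFC1 at -0.85, KIF11 at -0.68, KIF23 at -0.64 and KIF18A at -0.60. KIF14, KIF22 and KIF15 lay between -0.59 and -0.56, KIF20B at -0.33, KIF2C at -0.15 and KIF18B at -0.083. Further probes of KIF15 and KIF2C gave -0.39 and -0.18. By the authors' values, 3 were at least 2-fold lower, KIF20A at -1.96, KIF14 at -1.42 and KIFC1 at -1.16, against 0.53% of all genes, and 0 were at least 2-fold higher, against 0.929%. The 27 other kinesins had a median of 0.00052 and ranged from -0.12 to 0.14. With the scanner's own background column the 2-fold call ended, with KIF20A at -0.54. Under it 9 of 11 mitotic ratios were below 0, and KIF15 and KIF18B stood at 0.098 and 0.047. The comparisons share arrays, so their ratios are given side by side and are not independent of each other.

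The members also differed in how the doses compared. For KIF20A, KIF22 and KIF2C the 5 µM ratio to DMSO was above 0 and the 20 µM ratio below 0. Under median scaling KIF22 and KIF2C were below 0 at 5 µM too, at -0.036 and -0.096. With quantile normalization, both ratios of the probe that stood for KIF2C were within the technical spread. A further probe of KIF2C gave 0.16 at 5 µM, above the technical SD of 0.11. For KIF18A and KIF20B the 5 µM ratios of -0.32 and -0.27 stood beside 20 µM ratios of -0.92 and -0.60. For KIF11, KIF15 and KIF23 the 5 µM ratios of -0.051, -0.0021 and -0.019 stood beside -0.73, -0.56 and -0.66. A further probe of KIF15 gave -0.11 at 5 µM. Under median scaling the 5 µM ratios of KIF11, KIF15 and KIF23 were -0.25, -0.10 and -0.22. Those of KIF18A and KIF20B were then -0.48 and -0.36. How near to DMSO a gene stood at 5 µM thus depended on the scaling. Without a replicate these patterns could not be set against the spread between cultures.

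Among the transport and other kinesins, 3 were not detected on every array. KIF6 and KIF21B were below the threshold on all 3 arrays, and KIF26A was detected at 5 µM alone, at a signal of 80.1 against a threshold of 79.4. The other 27 were detected on all 3 arrays. At 20 µM against DMSO their ratios ran from -0.26 to 0.23. The lowest belonged to KIF3B, a subunit of the heterotrimeric kinesin-2 of cilia, with signals of 282 (DMSO), 216 (5 µM) and 215 (20 µM). The highest belonged to KIF3C, also of the kinesin-2 class, with signals of 183 (DMSO), 168 (5 µM) and 192 (20 µM). KIF3A, the partner of both, had a ratio of 0.098 on a dim probe, with signals between 85.2 and 91.7. KIF17, a homodimeric kinesin-2, stood at 0.11, with 0.035 on a further probe.

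KIF21A, a kinesin-4 that slows microtubule growth at the cell cortex, had a ratio of 0.16 at 20 µM and 0.21 at 5 µM. Its 2 further probes gave 0.18 and 0.031 at 20 µM, and 0.018 and 0.051 at 5 µM, so the 5 µM value was not shared by them. KIF24, a kinesin-13 of centrioles, had a ratio of -0.16 at 20 µM and KIF12 one of -0.12, both on dim probes. A further probe of KIF24 gave -0.052. KIFC2 stood at 0.11. KIF5B, the widely expressed heavy chain of kinesin-1, was among the bright probes of this set, with signals of 453 (DMSO), 362 (5 µM) and 417 (20 µM). Its ratios were 0.058 at 20 µM and -0.0052 at 5 µM. The heavy chains known from neurons, KIF5A and KIF5C, had ratios of 0.0073 and 0.066 at 20 µM. KIF5A lay near the threshold, with signals between 81.1 and 83.3. Members of the kinesin-1 class were named after their values were seen, as were the class members below.

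The 2 sets divide several motor classes between them, so genes of related motors can be set side by side at 20 µM against DMSO. In the kinesin-14 class KIFC1 stood at -1.01, while KIFC2, KIFC3 and KIF25 stood at 0.11, 0.051 and 0.039. In the kinesin-3 class KIF14 stood at -0.69, while the 6 transport members KIF1A, KIF1B, KIF1C, KIF13A, KIF13B and KIF16B lay between -0.037 and 0.094. In the kinesin-8 class KIF18A stood at -0.92, KIF18B at -0.093 and KIF19, a motor of motile cilia, at 0.033. In the kinesin-12 class KIF15 stood at -0.56 and KIF12 at -0.12. Of the kinesin-13 depolymerases, KIF2C of the mitotic set stood at -0.047, KIF2A, which also acts at spindle poles, at 0.033 and KIF2B at -0.010. KIF24 stood at -0.16, lower by more than the technical SD. KIF2A had signals, before normalization, of 813 (DMSO), 607 (5 µM) and 732 (20 µM), and KIF2B was dim at 84.5 to 88.9. Several other class members were dim too, where the offset holds ratios near 0. DMSO signals were 90.8 for KIF1C, 109 for KIF13A, 111 for KIF16B, 108 for KIF19, 97.4 for KIF25 and 103 for KIF12. In the authors' value table, with no offset, these stood at -0.21, -0.031, 0.14, 0.11, 0.18 and -0.48 in the same order. The kinesin-6 class had only mitotic members, all at or below -0.60.

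**Figure D3:**
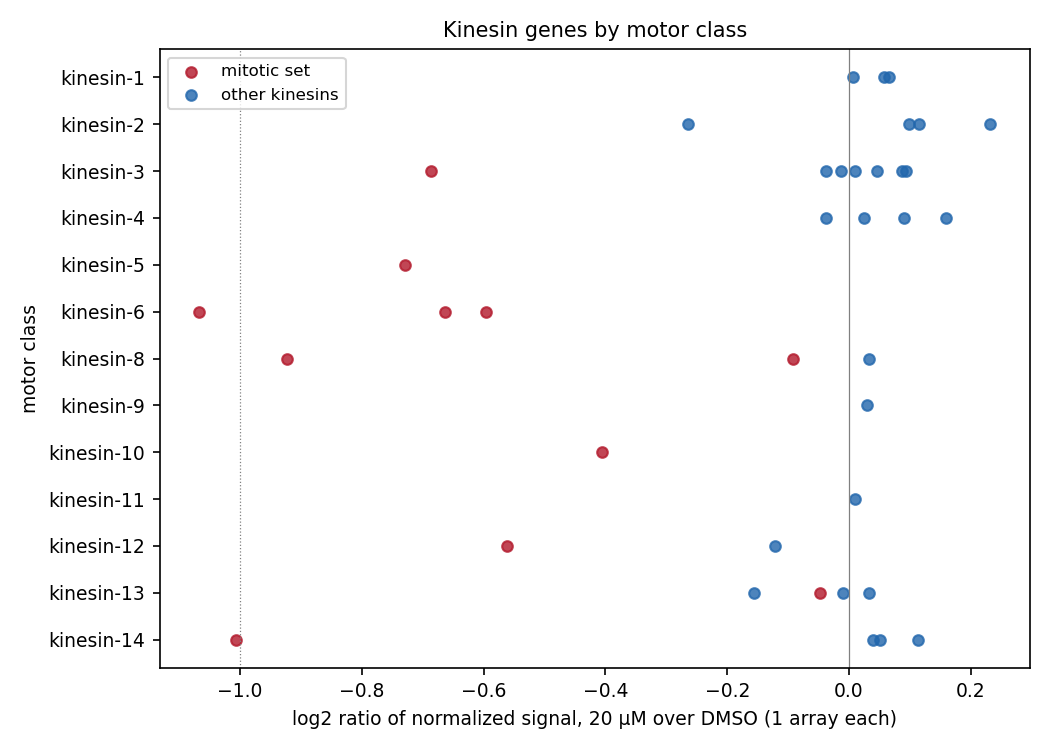
Log2 ratio of the normalized signal at 20 µM over DMSO (1 array each) for each detected kinesin gene, by motor class. In kinesin-3, kinesin-12 and kinesin-14 the gene of the mitotic set lies to the left of the others, whereas in kinesin-13 all 4 genes lie between -0.16 and 0.033.

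KIF4B needs a separate word. It is an intronless copy of KIF4A, so its probe may also bind KIF4A transcripts, and the rule places it among the other kinesins. Its signals were 98.6 (DMSO), 91.0 (5 µM) and 95.6 (20 µM), with a ratio of 0.024 at 20 µM and 0.12 in the authors' value table. Which of the copies this probe measured was not tested, and nothing follows from it for KIF4A.

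Genes that work with the mitotic kinesins were followed in a list of 18, all with a probe. Of the 17 detected in DMSO and at 20 µM, all had ratios below 0 and their median was -0.85. At least 2-fold lower were 7 of them, against 0.324% of all genes, and 0 were as much higher, against 0.442%. This list, those that follow and the kinesin members were chosen with earlier results of these data known, so such counts are a description only. CENPE, the kinetochore kinesin-7 whose symbol falls outside the KIF names, had signals of 381 (DMSO), 267 (5 µM) and 163 (20 µM), and a ratio of -1.18. It thus lay below every KIF gene in this comparison. ANLN, the anillin scaffold of the contractile ring, stood at -1.07, and CCNB1, cyclin B1 of the mitotic kinase, at -1.55. The spindle protein HMMR stood at -1.48, AURKA, which TPX2 activates on the spindle, at -1.44, and BIRC5 of the chromosomal passenger complex at -1.17. The protein partners of single motors were lower as well, although they fall outside the rule for named genes. RACGAP1, which forms centralspindlin with KIF23, stood at -0.85, PRC1, the central spindle bundler that binds KIF4A, at -0.82, and TPX2, a spindle factor that targets KIF15, at -1.01. CIT, the citron kinase that binds KIF14, was at the threshold, with signals of 83.6 (DMSO), 81.3 (5 µM) and 79.7 (20 µM), the last below detection. At 5 µM the list had a median of -0.053 with 13 of 18 below 0, against 47.9% of all genes. Of the list 0 were 2-fold apart, against 0.00622% of all genes lower and 0.0498% higher. Median scaling gave a median of -0.26, where all genes had a median of -0.018, a 25th percentile of -0.17 and 54.4% below 0.

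The light chains, cargo adaptors and regulators of transport kinesins gave another picture. Of 22 symbols, 19 had a probe and were detected in both arrays of each comparison. At 20 µM against DMSO 13 were above 0 and 6 below, with a median of 0.081 and 0 members 2-fold apart in either direction, against the same 0.324% lower and 0.442% higher over all genes. The member farthest from 0 was SPAG9, the scaffold JIP4 that links kinesin-1 and dynein to cargo, with signals of 242 (DMSO), 240 (5 µM) and 335 (20 µM) and a ratio of 0.68. MAPK8IP3, the related scaffold JIP3, stood at 0.42 and KLC1, a kinesin-1 light chain, at 0.38. KIFAP3, the third subunit of heterotrimeric kinesin-2, stood at 0.20 and TRAK2, a mitochondrial adaptor, at 0.17. KIFBP, which binds kinesin motor domains and keeps them off microtubules, stood at -0.23. At 5 µM this list had a median of 0.041, which median scaling turned to -0.068 and the authors' values to -0.0083. Over all genes these medians were 0.0043, -0.018 and -0.030.

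Cytoplasmic dynein and dynactin, the motor that moves the opposite way along microtubules, served as a further point of reference. Of 28 symbols, 25 had a probe and 23 were detected in both arrays. At 20 µM against DMSO 12 were below 0 and 11 above, with a median of -0.049 and a range from -0.40 to 0.39. None was 2-fold apart, against 0.324% of all genes lower and 0.442% higher. DCTN3, a small dynactin subunit, stood at -0.40, and the light chains DYNLL1 and DYNLRB1 at -0.29 and -0.28. HOOK1 and HOOK2, which join dynein to cargo, stood at 0.39 and 0.24, and DCTN4 at 0.25. At 5 µM the list had a median of -0.070 with 17 of 23 below 0, against 47.9% of all genes. Median scaling gave a median of -0.20, where all genes had a median of -0.018, a 25th percentile of -0.17 and 54.4% below 0.

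**Figure D4:**
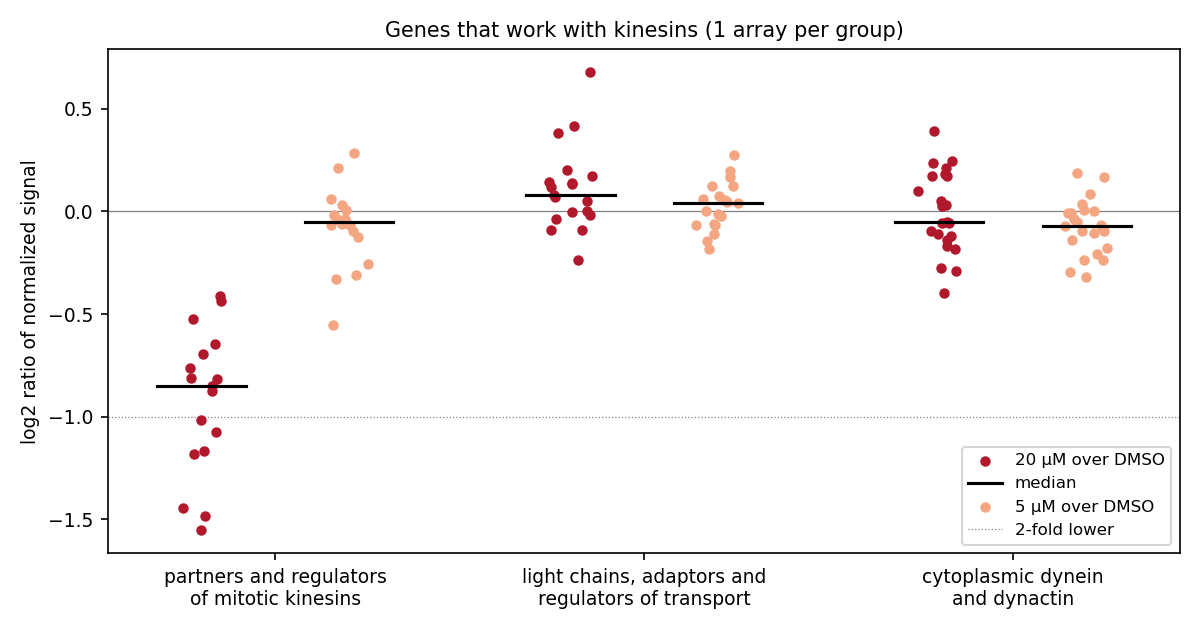
Log2 ratio of the normalized signal for genes that work with kinesins, at 20 µM over DMSO (dark points) and at 5 µM over DMSO (light points), with list medians as black lines and 1 array per group. The partners of mitotic kinesins have a median of -0.85 at 20 µM, while the transport and dynein lists have medians of 0.081 and -0.049.

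The promoter letters and the ratios of the mitotic kinesins can be read together, as a description over few genes. The 8 genes with a probe and TTTGAA in the promoter window had ratios at 20 µM against DMSO between -1.01 and -0.093, with a median of -0.68. The 3 without it were KIF20A at -1.07, KIF22 at -0.41 and KIF2C at -0.047. The ranges overlapped, and the gene with the lowest ratio and the gene nearest 0 both lacked these exact letters. Other forms of the region were not searched. Of the mitotic genes, KIF2C and KIF15 had no CCAAT in the window. Outside the set, KIF5B and KIF4B held both motifs, with ratios of 0.058 and 0.024, and KIF3B held CCAAT with the lowest ratio of the other kinesins.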

How the data were processed

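Total RNA was amplified as amino allyl aRNA and coupled to a dye for Toray 1-colour arrays, per the labels' protocols. Per the file headers, the scanner output deposited for an array lists the median intensity of every spot; the extraction software is not stated. The authors' value table also holds a linear intensity, with a median of 25 on each array and no step stated. Spot signals were corrected with normexp (limma 3.58.1, R 4.3.3, offset 50, all spots), taken to log2 and quantile normalized over 24460 gene probes; the step was tested on simulated data. The scanner's local background column was left out because it followed the signal of the same spot (Spearman's rho across probes, 0.967 to 0.971). Detection meant a signal above the mean plus 2 SD of 480 blank and negative control spots, after dropping 5% at each end. Of several probes of a gene, the one detected on most arrays and then the brightest stood for it. Of 24460 gene probes, 21707 had 1 gene symbol and 2753 none. The number of arrays limits the precision.

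There is no test with 1 array per group: ratios, counts at least 2-fold apart and medians are given beside those of all genes. Text names every mitotic kinesin, the 8 other kinesins farthest from DMSO at 20 µM, CENPE and up to 6 genes of each partner list; others are said to be outside this rule or complete a class. The members and lists were chosen with earlier results of these data known, and the role and class groups were assigned from general knowledge after values were seen. The 7 alternatives are described in the closing section. Tables were made with pandas 2.3.3 and numpy 2.4.6 under Python 3.11.15, and plots with matplotlib 3.10.9.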

Additional observations from a re-analysis of the deposited data

How the results depend on the processing

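No paired analysis was possible because each group had 1 array; for the same reason no replicate could be left out and no slide could be set as a block. With no filter on dim probes, the stricter filter and the mean over a gene's probes, the medians and counts of both kinesin sets moved by less than the technical SD or 1.5 times. Without background correction 0 mitotic kinesins were at least 2-fold lower at 20 µM against DMSO. The authors' value table gave 6 and a median of -1.02 there, and 3 and a median of -0.79 for 20 against 5 µM; the cause was not tested. Median scaling moved the mitotic median at 5 µM against DMSO to -0.16. The scanner's background column, which follows the spot signal, gave mitotic medians of -0.064 at 20 µM against DMSO, 0.11 at 5 µM against DMSO and -0.18 for 20 against 5 µM, with 0 genes at least 2-fold lower in each, and it turned KIFC1 at 20 µM against DMSO to 0.23; the cause was not tested. Of 57 ratios of single kinesins, 36 besides that of KIFC1 moved by more than the technical SD under it, 29 in the authors' value table, 9 under median scaling, 2 without background correction and 1 with the mean over probes. Over all genes at 20 µM against DMSO, 52 were at least 2-fold lower and 71 higher. The authors' value table gave 254 and 218, the background column 466 and 430, and no background correction 33 and 60. At 5 µM against DMSO, 1 was lower and 8 higher, against 4 and 5 under median scaling, 50 and 46 in the authors' value table, 389 and 271 with the background column, 0 and 7 under the stricter filter and 0 and 6 without background correction. For 20 against 5 µM, 15 were lower and 21 higher, against 11 and 36 under median scaling, 85 and 149 in the authors' value table and 399 and 412 with the background column.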
